A study of Mus musculus with 12 samples.

Results

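The regions described here are clusters of crosslinked RNA in protein-coding genes that were listed for Puf60 with exon 5 and overlapped nothing listed for Puf60 without exon 5 or for Rbm38. They were chosen by that absence: a cluster's centre had to lie in exactly 1 annotated gene, a protein-coding one, and no cluster of the other tables could share even 1 nt with it on the same inferred strand. The rule kept 9754 of the 36227 clusters of Puf60 with exon 5, and of the 27809 that lay in 1 protein-coding gene. Across the 3 tables of the series there were 124941 clusters. The clusters kept, called the set here, fell in 3526 genes, and all coordinates are 1-based on mouse mm10.

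The cells were N2A, a mouse neuroblastoma line, in which 1 of 3 Flag-tagged proteins was switched on from a Flp-in transgene with 1 µg/ml doxycycline. Ultraviolet light (150 mJ/cm2) fixed protein to RNA, and iCLIP (individual-nucleotide crosslinking and immunoprecipitation) recovered the bound fragments. For Puf60 with exon 5 there were 3 CLIP libraries induced for 48 h and 1 size-matched input induced for 24 h. For Puf60 without exon 5 and for Rbm38 there were also 3 CLIP libraries and 1 size-matched input each, all induced for 24 h. Exon 5, cell line and hours of induction cannot be told apart in a difference between the Puf60 tables. No label reports removal of the endogenous proteins, which may still have been present. The titles number the CLIP libraries of a group with the tag BR, which no label spells out or ties to separate cultures.

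Puf60 is an RNA-binding protein of the U2af2 family that helps the spliceosome recognise 3′ splice sites. It binds runs of C and U, the polypyrimidine tracts that lie just before the 3′ end of most introns. Exon 5 is skipped or kept by alternative splicing and lengthens the protein before its RNA recognition motifs. Rbm38 is an RNA-binding protein with a single RNA recognition motif, known for binding U-rich sites in the 3′ untranslated regions of messenger RNAs. A cluster inside an intron reflects contact with RNA that still carries that intron.

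Sequence could be read for the few clusters that lay whole in a RefSeq promoter window of GRCm38.p6 (mm10), which runs from 250 bases before to 50 after a gene's start. They are shown because runs of C and T are what the Puf60 family is known to bind. All counts of sequences here keep only clusters 50 nt wide. The rule's clusters had 28 of these, and 7 were enriched over input at the authors' adjusted p under 0.05. Each line gives the 30 bases of an enriched cluster that are richest in C and T, 5′ to 3′ on the inferred RNA strand, with the longest run of C and T in capitals.
Hnrnpll: cccgTCTCCCgcgccgtctccaccgccgcc
Gpr19: accttcacagcgtcaTCTTCTCTCTCTacc
Ccl25: tcttttatattttgtgTTTTTCCTCTattt
Cartpt: ccccgTCCTTCTTCTCCCCCTCCCTCTTCC
Noc2l: TCTTTCCTTTCTgcagctgaaatcttttct
Nabp2: ctcgggaagcatgacgaccgagaCCTTCgt
Krtcap2: cgcgccggctttggCTCCCCTCTTTCTCCa

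The longest run reached 25 bases in Cartpt, the neuropeptide precursor gene, and 5 bases in Nabp2, a single-stranded DNA-binding protein gene. In Noc2l, a ribosome assembly factor gene, the 12-base run was followed directly by gcag. A run of at least 9 bases of C and T, a length chosen after the data were seen, occurred in 5 of the 7 enriched clusters (71.4%). Among all 28 it occurred in 8 (28.6%), and among 197106 50-base tiles of all promoter windows in 13.4%. Of 8 enriched clusters found in both Puf60 tables and not for Rbm38, 6 held such a run, of 14 enriched clusters listed for all 3 proteins 7, and of 3 shared with Rbm38 alone 1. Counting clusters whether enriched or not, the shares were 47.5% for both Puf60 tables, 46.3% for all 3 proteins and 30% with Rbm38 alone, all above the 28.6% of the set. The pyrimidine content of the 28 clusters ranged from 28% to 80%, with a median of 57%, and the tiles had a median of 50%. These windows cover gene starts only, so the sequences stand for a small and particular part of the 9754 clusters.

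The windows of these 7 clusters were located as follows, by the RefSeq start they surround. Gpr19 (chr6:134887786-134887835), an orphan receptor gene, Cartpt (chr13:99900686-99900735), Nabp2 (chr10:128409286-128409335) and Krtcap2 (chr3:89246451-89246500), an oligosaccharyltransferase subunit gene, were covered by the window of their own start. Hnrnpll (chr17:80061986-80062035), a splicing regulator gene, Ccl25 (chr8:4327701-4327750), a chemokine gene, and Noc2l (chr4:156245151-156245200) were covered by the window of another annotated start. In the authors' deposited table their log2 folds were 3.42 for Hnrnpll, 3.30 for Gpr19, 3.19 for Ccl25, 3.14 for Cartpt, 2.69 for Noc2l, 1.45 for Nabp2 and 0.85 for Krtcap2. Both clusters below 2 on the log2 scale of the authors' deposited table lay in the window of their own gene's start, as did those of Gpr19 and Cartpt. The Krtcap2 cluster spanned its gene's start (89246473). The clusters of Nabp2 (start 128409180), Gpr19 (134887785) and Cartpt (99900683), all on the minus strand, lay wholly before theirs.

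A small RNA was also crossed by a cluster of this set. In Srebf1, the gene of the sterol-response transcription factor, a cluster on the minus strand (chr11:60202236-60202285) covered 24 nt of the Mir6922 hairpin. It contained all 23 nt of the 3p arm, which RefSeq gives as follows, with the seed (bases 2 to 8) in capitals.
mmu-miR-6922-3p: uGUUCUGCucacccuucucacag
The log2 fold there was 1.51 in the authors' deposited table, and the cluster was enriched. Since the hairpin lies inside Srebf1 on the same strand, reads of the host transcript and of the hairpin cannot be told apart.

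Most clusters found only with exon 5 were not enriched over input. Of the 9720 that have an adjusted p, 2757 were under 0.05 (28.4%, 95% Wilson interval 27.5 to 29.3, for counting error only), and they fell in 1647 genes. The same call was made at 39.3% of all clusters of the table and at 40.5% of those in 1 protein-coding gene. In clusters also listed for Puf60 without exon 5 but not Rbm38 the share was 65.9% of 6419, in those also listed for Rbm38 alone 21.9% of 2727, and in those listed for all 3 proteins 41.1% of 8846. Presence in the other tables chose these classes, so the shares describe them and test nothing. The mirror set, clusters listed only for Puf60 without exon 5, had 3005 of 11463 enriched (26.2%).

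The log2 folds fell into a low and a high group. The median over all clusters found only with exon 5 was -0.26 in the authors' deposited table (quartiles -1.05 and 1.25, range -3.53 to 5.40), and 4203 of them (43.1%) were above 0. Enriched ones had a median of 2.94 (quartiles 2.13 and 3.37), the others -0.71, in the authors' deposited table. By that table, the enriched clusters found with both Puf60 forms stood higher, at a median of 3.42, and those shared with Rbm38 alone lower, at 1.74. The top of the scale was thinly filled: 1293 clusters reached a log2 fold of 3 (13.3%), 97 reached 4 (0.994%) and 1 reached 5, against 1749 (6.29%) at 4 or more and 464 at 5 or more among all clusters in 1 protein-coding gene, in the authors' deposited table.

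**Figure D1:**
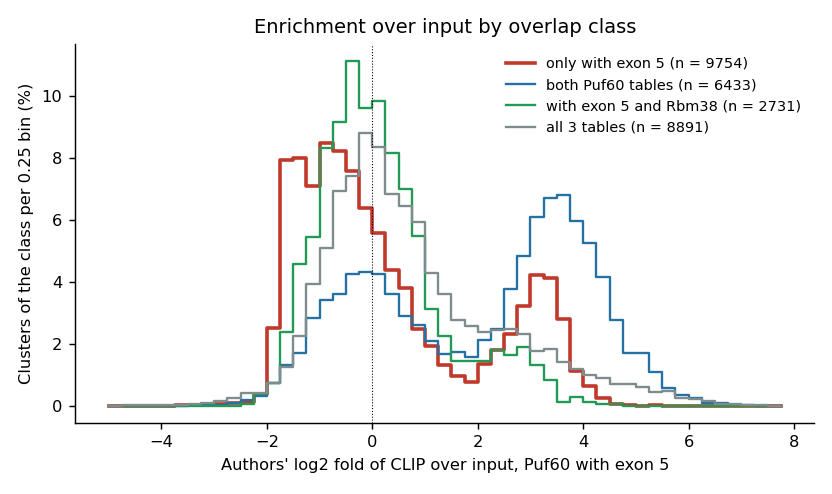
Share of clusters (%) per 0.25 bin of the authors' log2 fold of CLIP over input for Puf60 with exon 5, by overlap class in protein-coding genes. Clusters found only with exon 5 (red) peak below 0 and again near 3, and few pass 4; those of both Puf60 tables (blue) have most of their clusters in the upper peak.

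Many low values were exact repeats. The 9754 clusters held only 2554 distinct pairs of log2 fold and p-value, and 1 pair, with a log2 value of -1.62 in the authors' deposited table, stood at 197 clusters. Among the 2757 enriched clusters there were 1483 pairs, the commonest at 11 clusters. A further 415 clusters had a p-value under 0.05 without an adjusted p under 0.05, and 347 of these carried an adjusted p of 1; what set that value is not stated.

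The highest value lay in Arid1a, which encodes a DNA-binding subunit of the SWI/SNF chromatin remodelling complex. The cluster (chr4:133722036-133722135) had 5.40 and an adjusted p of 3.59e-125 in the authors' deposited table. The nearest cluster of Puf60 without exon 5 began 250 nt away and stood at -0.32, and the nearest of Rbm38, 750 nt away, at -0.44, by the authors' deposited tables. Neither neighbour was enriched, so in this gene a strong site with exon 5 lay close to listed but unenriched RNA of the other proteins.

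Psme4, a proteasome activator gene, followed at 4.94 in the authors' deposited table (chr11:30807901-30808000). Its nearest cluster without exon 5 was 100 nt away and stood at 0.50 with an adjusted p of 0.18, by the authors' deposited table. Strbp, which encodes a double-stranded RNA-binding protein of germ cells and neurons, had 4.89 (chr2:37634736-37634835), and its nearest cluster without exon 5, 6100 nt away, had -0.42, in the authors' deposited tables. The next were C1ql1, a secreted synaptic organiser gene, at 4.79, Marchf8, a membrane-bound ubiquitin ligase gene, at 4.73, and B3galt1, a galactosyltransferase gene, at 4.70, in the authors' deposited table. C1ql1 and Marchf8 held 0 clusters of Puf60 without exon 5, and the nearest ones, outside the gene, were 54200 and 146200 nt away.

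The rest of the 12 highest were close together. By the authors' deposited table they were Mical2 (4.55), an actin-oxidising enzyme gene, Acbd3 (4.55), a Golgi scaffold gene, and Cdk12 (4.52), the kinase gene for RNA polymerase II. Nova1 (4.49), a neuronal splicing regulator gene, Ptgs1 (4.49), the cyclooxygenase 1 gene, and Wdr33 (4.48), a gene of the polyadenylation signal reader, completed them in the authors' deposited table. Of these 12, 3 had a nearest cluster without exon 5 that was enriched in the same gene: Cdk12 (1.72, 450 nt away), Nova1 (1.11, 9100 nt away) and Wdr33 (4.84, 15400 nt away), by the authors' deposited table.

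Clusters that met the rule by the narrowest margin touched a cluster of another table without overlapping it. There were 1621 of these (16.6%), with a log2 median of -0.15 in the authors' deposited table. Of them 433 were enriched (26.8%), near the 28.4% of the whole set. Outside the rule, 13401 clusters had a largest overlap of 50 nt, which is the grid step. Their median was 0.57 in the authors' deposited table, and 5971 were enriched. The enriched share over all clusters in 1 protein-coding gene was 40.5%. A 50-nt cluster with that overlap is wholly covered, so these were not borderline cases as a group. The highest touching cluster was in Mbnl1, the muscleblind splicing regulator gene (chr3:60615501-60615600), at 4.36, and it abutted a cluster without exon 5 at 3.15, in the authors' deposited tables. Hap1, the huntingtin-associated protein gene, had 4.21 beside 2.74, Stxbp2, a vesicle fusion regulator gene, 4.12 beside 3.53, and Sfmbt2, a Polycomb gene, 4.06 beside 4.25, in the same order and by the authors' deposited tables. All 4 of those neighbours without exon 5 were enriched, so at these places both Puf60 tables list enriched RNA edge to edge.

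Neighbours were common beyond direct contact too. The median gap from a cluster of the set to the nearest cluster of either other table on the same strand was 450 nt; to Puf60 without exon 5 alone it was 1200 nt and to Rbm38 alone 1050 nt. A gap of 50 to 100 nt was found at 1547 clusters, one of more than 100 and up to 500 nt at 1959, and one over 100000 nt at 286. The size of the set therefore rests on the definition of sharing: with clusters up to 500 nt away also counted as shared, 4627 remained, 1393 of them enriched, and with only enriched clusters of the other tables counted there were 14751. Of the 2757 enriched clusters, 487 (17.7%) lay within 100 nt of an enriched cluster of Puf60 without exon 5, 829 (30.1%) within 500 nt and 1510 (54.8%) within 5000 nt. The counts for an enriched Rbm38 cluster were 205 (7.44%), 473 (17.2%) and 1198 (43.5%). The Rbm38 table holds more clusters in all, 49260 against 39454 without exon 5.

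**Figure D2:**
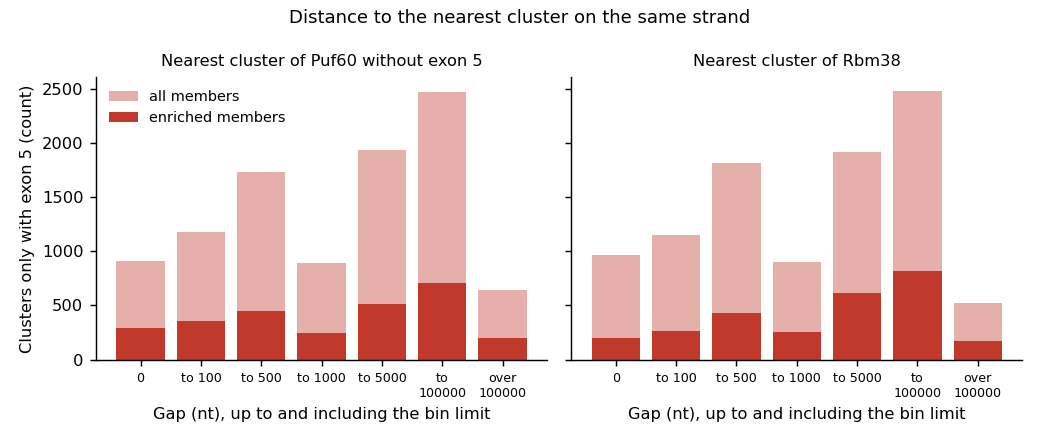
Number of clusters found only with exon 5 by gap in nt to the nearest same-strand cluster of Puf60 without exon 5 (left) and Rbm38 (right), all in pale and enriched ones in dark red; starts lie on a 50-nt grid. A gap of 0 was found at 914 and 963 clusters, and the fullest bin on both sides is over 5000 and up to 100000 nt, a wide one.

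Enriched clusters also stood near each other. Within 500 nt of 813 of the 2757 enriched clusters (29.5%) lay another enriched cluster of Puf60 with exon 5, against 805 of 6997 clusters that were not enriched (11.5%). A neighbour of any kind in the same table was about as frequent for both, at 36.2% and 35.4%. Another enriched cluster of the set itself lay within 500 nt at 342 (12.4%) and within 5000 nt at 943 (34.2%). Neighbouring clusters share transcripts and may share fragments, so these are not independent sites.

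Most host genes also had clusters of another table, as genes with a cluster of Puf60 with exon 5 generally did. Of the 3526 genes, 2523 held clusters of both Puf60 without exon 5 and Rbm38, 252 of Puf60 without exon 5 only, 367 of Rbm38 only, and 384 of neither. In all, 89.1% held a cluster of another table, enriched or not, and 57.1% held an enriched cluster of Puf60 without exon 5. Over all 5860 genes with a cluster of Puf60 with exon 5 these shares were 93.4% and 60.3%. Among the 1647 genes where the set had an enriched cluster, 70.5% held an enriched cluster of Puf60 without exon 5, against 83.0% of the 3850 genes with any enriched cluster of Puf60 with exon 5. A cluster of Puf60 without exon 5, enriched or not, lay at another place in 78.7% of the 3526 genes. The larger groups include genes with overlapping clusters only, which hold another table's cluster by construction.

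Of the 384 genes with no cluster of either other table in that gene alone, 152 had an enriched cluster. In 346 of the 384, 136 with an enriched cluster, no other table had a cluster where the gene overlaps another one either. The highest were in Mettl22, a methyltransferase gene (4.43), Gtf3c5, a subunit gene of the RNA polymerase III factor TFIIIC (4.31), and Rpap1, an RNA polymerase II-associated protein gene (4.24), in the authors' deposited table. Lta4h, the leukotriene A4 hydrolase gene, followed at 4.23 in the authors' deposited table. These 4 genes held 0 clusters of the other tables by either count. Trim7, a ubiquitin ligase gene, also had 4.23 in the authors' deposited table, in a cluster antisense to it, but where it overlaps another gene it held 2 clusters of each other table. In Lta4h the cluster (chr10:93484601-93484650) lay 270 nt from the gene's 3′ end.

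The lowest 5 values of the set were in Ythdc2 (-3.53), a helicase gene that reads methylated adenosine, Gnaq (-3.44), a G protein subunit gene, Emc2 (-3.12), Adcyap1r1 (-3.11) and Tpst2 (-3.06), by the authors' deposited table. Emc2 encodes a membrane insertase subunit, Adcyap1r1 the receptor of the neuropeptide PACAP and Tpst2 a tyrosine sulfotransferase. All 5 had a p-value of 1. The deposited p-values rose towards 1 as the log2 fold fell, so they were read as calling enrichment only and not depletion. In Gnaq a cluster of Puf60 without exon 5 in the same gene, 38700 nt away, stood at 6.61 in the authors' deposited table, so 1 gene held a high cluster of the other form and a low one of this set.

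Single clusters were the usual case per gene. In 1829 of the 3526 genes (51.9%) there was 1 cluster of the set, while 132 genes with 10 or more held 2627 clusters (26.9%). For enriched clusters, 1116 of 1647 genes (67.8%) had 1, and 9 genes had 10 or more. Of the 8 genes with most clusters, 7 had from 2 to 9 enriched ones, and Rims2 had 29.

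Samd5, a gene encoding a sterile alpha motif protein, held most, with 123 clusters of which 5 were enriched (log2 median -0.83, highest 3.66, in the authors' deposited table). The same gene held 100 clusters found only without exon 5 and 386 found only for Rbm38. Efna5, the ephrin A5 gene, had 100 clusters with 2 enriched, and 66 only without exon 5. Unc5c, a netrin receptor gene, had 84 with 6 enriched, and 125 only without exon 5. Trps1, a zinc finger repressor gene, had 86 with 9 enriched, and 107 only without exon 5. In these 4 genes both Puf60 tables thus listed many clusters, most of them unenriched. That these lie at different places follows from the rule, which keeps only clusters without overlap.

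Other crowded genes leaned to the form with exon 5. Pcbp3, a poly(C)-binding protein gene, had 88 clusters (7 enriched) against 33 only without exon 5. Grip1, a scaffold gene for glutamate receptors, had 71 (5 enriched) against 15, and Tmtc2, an endoplasmic reticulum mannosyltransferase gene, 57 (7 enriched) against 20. In Tmcc3, named after its values were seen, all 37 clusters of Puf60 with exon 5 belonged to the set (5 enriched), against 1 cluster of Puf60 without exon 5 in the whole gene. Pcbp3, Grip1, Tmtc2, Tmcc3 and Samd5 all lie on chromosome 10.

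Rims2, which encodes an active zone scaffold for synaptic vesicle release, led by enriched clusters. It had 76 clusters of the set in 486 kb, 29 of them enriched, with a median log2 fold of 0.55 and a highest of 3.85 (chr15:39553601-39553650) in the authors' deposited table. Only without exon 5 the gene had 51 clusters, 7 enriched. Over all its clusters, 43 of 104 were enriched with exon 5 and 20 of 75 without it.

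Enriched clusters were dense in 4 further genes. Atad2, a chromatin-binding ATPase gene, had 15 enriched of 18 (highest 3.85) and Rbm26, a gene of the nuclear RNA exosome targeting pathway, 13 of 16 (highest 3.54), in the authors' deposited table. Setd5, a chromatin regulator gene, had 13 of 25 (highest 3.69) and Huwe1, a giant ubiquitin ligase gene, 12 of 23 (highest 3.89), in the authors' deposited table. Huwe1 had more enriched clusters found only without exon 5, 19 of 33, while Atad2 had 4 of 10, Rbm26 7 of 14 and Setd5 4 of 14.

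**Figure D3:**
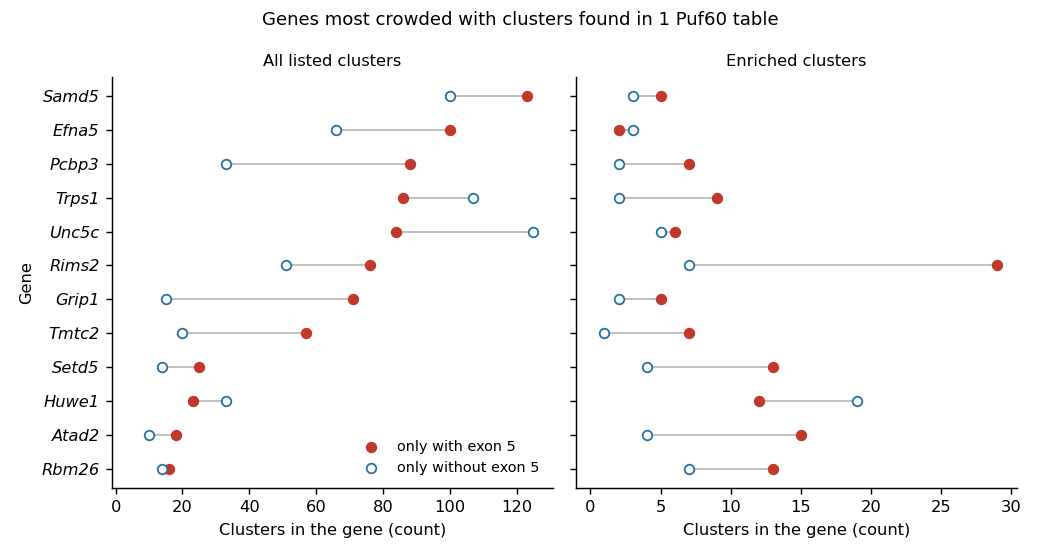
Clusters found only with exon 5 (filled red) and only without exon 5 (open blue) in the genes named for most clusters and most enriched clusters, as counts of all listed clusters (left) and enriched clusters (right). Samd5 leads on the left with 123, Rims2 on the right with 29, and Huwe1, Efna5, Trps1 and Unc5c have the open point further right in at least 1 panel.

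The chromosomes did not carry equal ratios of the clusters found with only 1 Puf60 form. Over all protein-coding genes there were 0.848 clusters only with exon 5 per cluster only without it. On chromosome 10 there were 1019 and 649 (1.57 per cluster), and 282 against 145 among enriched ones. Chromosome 1 had 510 and 1098 (0.464), enriched 137 and 348, and chromosome X 203 and 370 (0.549). Chromosome 18 had 264 and 199 (1.33), enriched 84 and 34.

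The Rbm38 table gives another level to set these beside. Chromosome 10 held 10.4% of clusters found only with exon 5, 5.64% of those only without it and 9.49% of those only for Rbm38. For chromosome 1 the shares were 5.23%, 9.54% and 4.92%. On these chromosomes the form with exon 5 was thus nearer to Rbm38, and the form without exon 5 was the table set apart. Chromosome 18 differed in this, with 2.71% and 1.73% of the Puf60 sets, and 371 of the 24677 clusters only for Rbm38.

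**Figure D4:**
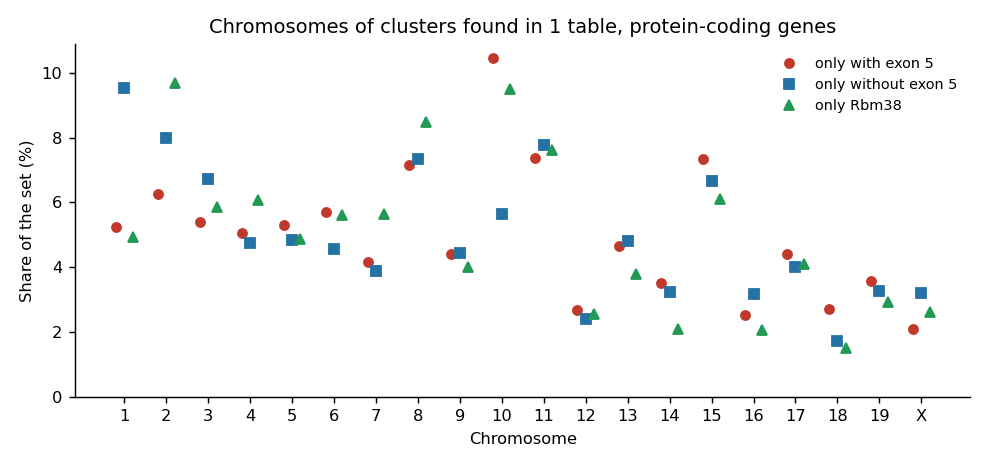
Share (%) of clusters found in only 1 table, by chromosome, for Puf60 with exon 5 (red circles, 9754 clusters), Puf60 without exon 5 (blue squares, 11505) and Rbm38 (green triangles, 24677). On chromosomes 1 and 10 the blue square stands apart from the other marks.

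Finer windows placed the excess within chromosomes. In 169 windows of 10 Mb with at least 50 clusters found with only 1 Puf60 form, the ratio ran from 0.196 to 3.36, with a median of 0.849. From 70 to 130 Mb of chromosome 10 there were 650 clusters only with exon 5 and 299 only without it (2.17), against 369 and 350 (1.05) below 70 Mb. Among enriched clusters of the upper stretch the counts were 198 and 67, and leaving out Pcbp3, the gene with most clusters there, gave a ratio of 2.11. More clusters with exon 5 were found in 103 genes and more without it in 44, so the lean was spread over many genes. The stretch held 6.66% of clusters only with exon 5, 2.60% of those only without it and 5.79% of those only for Rbm38.

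From 150 to 190 Mb of chromosome 1 the lean was opposite, with 174 and 548 clusters (0.318) and 37 against 185 enriched. That stretch held 1.78%, 4.76% and 1.29% of the same 3 sets. On chromosome 2, from 90 to 130 Mb, the lean was similar, with 99 and 274 clusters (0.361), but Rbm38 lay between the forms there, at 1.01%, 2.38% and 1.64% of the sets. All 3 stretches were picked after the data were seen. For sites listed for both forms, log2 folds were compared as with minus without exon 5. The median difference was 0.25 in the chromosome 10 stretch and 0.09 over 14652 matched pairs, in the authors' deposited tables. The median difference in the chromosome 1 stretch was -0.00. Each fold is taken over the input of its own protein, so it does not measure the same thing as a ratio of counts. Line, hours of induction and isoform cannot be told apart in these stretches.

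Clusters of the set were narrow. Of the 9754, 9467 (97.1%) had the smallest width of 50 nt and the widest had 250 nt. The share at 50 nt was 77.8% for those of both Puf60 tables, 90.7% for those shared with Rbm38 alone and 53.1% for those of all 3. It was 94.5% for clusters only without exon 5 and 86.4% for those only for Rbm38. A wider cluster has more chances to overlap another, so the rule itself favours narrow ones. Counted per cluster, the median gene body was 64.5 kb, against 41.5, 51.2 and 28.7 kb in the shared classes in the same order. It was 52.1 kb for clusters only without exon 5 and 64.1 kb for those only for Rbm38. Counted once per host gene, the median for the set was 36.8 kb against 35.6, 32.4 and 29.6 kb in the shared classes. The larger value per cluster thus came with genes that hold many.

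Strand was checked against RefSeq where it gives the gene's direction. The grid offset read as strand matched that direction at 93.9% of 22245 clusters in 1 protein-coding gene. For clusters only with exon 5, 276 of 7692 (3.59%, interval 3.20 to 4.03) ran antisense, against 7.12% for both Puf60 tables, 5.10% with Rbm38 alone and 8.50% in all 3. Low shares were also found for clusters only without exon 5 (3.25%) and only for Rbm38 (4.10%), so this was not particular to the set. A further 2062 clusters of the set had no RefSeq direction. Sense clusters thus made up 7416 of those that could be placed.

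A smaller share of the set than of the shared classes lay near the gene's 3′ end. No more than 2000 nt from their gene's 3′ end were 12.8% of the 7416 sense clusters, against 17.4% for both Puf60 tables, 27.3% with Rbm38 alone and 39.0% in all 3. Enriched clusters had 7.84%, 9.90%, 18.3% and 25.4%. Among genes of 50 kb or more, where the same distance is a smaller part of the gene, the shares over all sense clusters were 5.39%, 8.08%, 15.2% and 24.5%, so the order of the classes was kept there. Clusters only without exon 5 had 19.7% near the 3′ end, and 9.49% when enriched, and those only for Rbm38 had 23.2% and 39.8%. Near the 5′ end the set had 5.06% (interval 4.58 to 5.58), against 8.68%, 5.27% and 10.6% in the shared classes. Clusters only without exon 5 had 5.21% there, and those only for Rbm38 4.86%. The interval counts each cluster as a separate draw, though many share a gene, so these differences were not tested. Exons and introns are not marked in the reference used here, so a position says nothing of either.

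With each gene body cut into 10 equal bins, enriched clusters of the set were spread along the gene. The first bin held 6.51%, the ninth 13.3% and the last 12.1%, while clusters that were not enriched had 12.4% in the first and 20.1% in the last. In the class of all 3 proteins, 48.2% of clusters that were not enriched lay in the last bin.

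**Figure D5:**
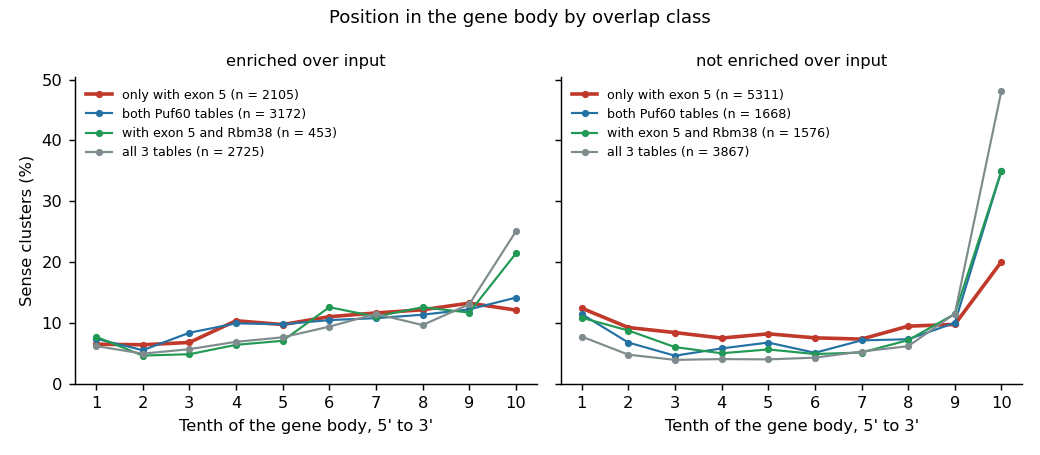
Share (%) of sense clusters in each of 10 equal bins of the gene body from 5′ to 3′, for enriched clusters (left) and the others (right), by overlap class. Enriched clusters found only with exon 5 (red) have 12.1% in the last bin, which holds 682 of the 2725 enriched clusters listed for all 3 proteins (grey).

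Gene groups were counted by how many clusters the set had in each, beside 35.1% of clusters and 28.4% enriched over all genes. Of all 5860 genes with a cluster of Puf60 with exon 5, 60.2% held a cluster of the set. Genes with many clusters have more chances to hold such a cluster. All 13 genes for 3′ splice site recognition with a cluster of Puf60 with exon 5 had clusters of the set, 49 of 161 clusters (30.4%), 21 enriched (44.7%), with a log2 median of 0.61 in the authors' deposited table. The highest were in U2af1l4 (3.85), a gene for a small U2AF subunit, Rbm39 (3.42), a gene for a splicing coactivator related to U2af2, and Ddx46 (3.38), a helicase gene of the U2 particle, by the authors' deposited table. In Rbm39 (chr2:156172836-156172885) an enriched cluster without exon 5 lay 50 nt away at 3.73, and in Ddx46 one lay 350 nt away at 3.76, in the authors' deposited tables. U2af1l4 held 0 clusters of the other tables, and the nearest without exon 5 was 293600 nt away. In the whole group, 20 of 57 clusters only without exon 5 were enriched.

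SR protein and hnRNP genes had smaller shares of their clusters in the set, a difference that was not tested. For SR proteins, which bind exonic enhancers, it was 24 of 185 (13.0%), 7 enriched, led by Srsf7 (2.80), Srsf1 (2.80) and Srsf3 (2.67) in the authors' deposited table. The Srsf1 cluster (chr11:88048701-88048750) touched clusters of both other tables that were enriched, at 1.80 without exon 5 and 2.50 for Rbm38, in the authors' deposited tables. For hnRNP genes, a family of splicing repressors and RNA packagers, it was 65 of 351 (18.5%), 22 enriched. Their highest were Hnrnpk (3.64), Pcbp2 (3.47) and Syncrip (3.44) in the authors' deposited table. Near the Hnrnpk cluster (chr13:58392586-58392685), 50 nt away, stood a cluster at 0.03 without exon 5 and one at 4.72 for Rbm38, by the authors' deposited tables.

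Neuronal and muscle splicing regulators had 81 of 243 clusters in the set (33.3%), 23 enriched, with Nova1, Mbnl1 and Elavl4, a neuronal RNA stability gene, at 4.17 in the authors' deposited table. The nearest cluster without exon 5 in Elavl4, 1200 nt away, stood at -1.82 there. Cleavage and polyadenylation factors had 25 of 112 (22.3%), and 13 of the 25 were enriched (52.0%), with a median of 1.03 in the authors' deposited table. Besides Wdr33, these were led by Cpsf6 (4.0) and Papola, the poly(A) polymerase gene (3.98), in the authors' deposited table. The list held 25 clusters in 9 genes, so 1 gene can move its share. Of its clusters only without exon 5, 9 of 29 were enriched.

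Chromatin regulators had 212 of 493 clusters in the set (43.0%), with 73 enriched (34.6%). Clusters of the set lay in 45 of 50 of these genes (90%, with 60.2% over all genes). After Arid1a, Ep400, a remodelling ATPase gene, had 4.27 and Ankrd11, a chromatin cofactor gene of neurons, 4.15 in the authors' deposited table. Ubiquitin ligase genes had 130 of 349 (37.2%), 49 enriched (37.7%), with Huwe1, Herc1 (3.67) and Fbxw7 (3.66) highest in the authors' deposited table. The Fbxw7 cluster lay 1122 nt from the gene's 3′ end, and the gene held 0 clusters of the other tables. Among clusters only without exon 5, 57 of 240 were enriched in chromatin regulator genes and 68 of 182 in ubiquitin ligase genes.

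Axon guidance genes, which encode ligands and receptors that steer growing axons, had the most clusters in the set, 246 of 454 (54.2%), and few were enriched, 22 (8.94%). Samd5 is no member of that list, but Efna5, with 100 of the clusters, and Unc5c, with 84, are. Without these genes, chosen after their values were seen, 14 of 62 were enriched (22.6%). Slit3, a secreted repellent gene, had 3.86 and Ephb2, an ephrin receptor gene, 3.81 in an antisense cluster, in the authors' deposited table. Synaptic genes had 149 of 329 (45.3%), 53 enriched (35.6%), of which Rims2 alone held 29. Nlgn2, an inhibitory synapse adhesion gene, had 4.18 (chr11:69834786-69834835) and Stxbp5, the tomosyn gene, 3.91 in the authors' deposited table. Voltage-gated channels had 27 of 54, 6 enriched, with Scn8a, a sodium channel gene, at 4.04, Cacnb1 at 3.68 and Cacna1c, both calcium channel genes, at 3.22, in the authors' deposited table.

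Genes of centrosomes, microtubule motors and the cell cycle were also among the hosts. Centrosome and microtubule motor genes had 86 of 239 clusters in the set (36.0%), 40 enriched (46.5%), with a median of 0.64 in the authors' deposited table. Pcm1, the pericentriolar scaffold gene (4.13), Kif5c, a neuronal kinesin gene (3.71), and Cdk5rap2, a centrosomal gene (3.68), stood highest in the authors' deposited table. Cell cycle and replication genes had 91 of 271 (33.6%), 41 enriched (45.6%), led by Anapc1 (4.28), an anaphase-promoting complex gene, Smc4 (3.91), a condensin gene, and Orc4 (3.83), an origin recognition gene, in the authors' deposited table. Near the Orc4 cluster (chr2:48910536-48910585), a cluster without exon 5 at -0.27 lay 300 nt away, by the authors' deposited table. Among clusters only without exon 5, 49 of 121 were enriched in centrosome and motor genes and 47 of 112 in cell cycle genes.

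Ribosomal protein genes were at the other end. All 78 had clusters of Puf60 with exon 5, 477 in all, and 26 of these (5.45%) belonged to the set, in 21 genes, with 3 enriched. The 3 were in Rps24 (3.38), Rpl4 (2.78) and Rpl7 (0.77) in the authors' deposited table. The Rps24 cluster (chr14:24495651-24495700) touched an Rbm38 cluster at 3.52, in the authors' deposited tables. Reads of ribosomal protein genes can be split with their processed copies, so these counts are uncertain.

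The label of the cells was set against marker genes. Of 18 sympathetic neuroblast markers, 12 had a cluster of Puf60 with exon 5 and 10 a cluster of the set, 39 of 131 clusters (29.8%), with 10 enriched. Among them were Ret, a growth factor receptor gene, at 2.79 and Prph, the peripherin gene, at 1.41 in the authors' deposited table. Of 20 markers of other cell types, 4 had a cluster, 5 clusters in all, of which 2 belonged to the set and 0 were enriched. Over all 21900 protein-coding genes, 5860 had a cluster. Of their clusters 35.1% belonged to the set, and 28.4% of these were enriched. The 4 of 20 is not far from the share over all genes, so it does not by itself tell cell types apart. Presence of a cluster shows RNA of the gene in these libraries and gives no expression level.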

How the data were processed

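The authors deposited 1 table of clusters per protein, with log2 fold change, p-value and adjusted p-value per the file headers and no values per library (0 further value columns). Depth and replicate spread are therefore unknown, the planned tests on library values could not be made, and log2 was read as CLIP over input. The submitters' processing notes name TopHat, edgeR, NCBIM37 and mm10, with no role or version. How clusters were called is not given in the sources used here.

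Enriched means a deposited adjusted p under 0.05. Starts lie on a 50-nt grid with an offset of 0 or 35, read as plus and minus strand. Overlap needed 1 nt on the same chromosome and offset. Gene bodies came from RefSeq GRCm38.p6 (21900 protein-coding genes with coordinates, strand for 17492). Overlap and gap code was tested on simulated data. Python 3.11.15, pandas 2.3.3 and scipy 1.17.1 were used.

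The set and all 15 gene lists were chosen with earlier results of these data known. Genes were named by rule: the 12 highest enriched clusters, 1 per gene; the 8 genes with most clusters and the 5 with most enriched ones; up to 3 per list; the 5 lowest; the 5 highest in genes without another table's cluster; and the 5 highest that touch one. Predicted and numbered genes were counted, not named. Some genes that the rule takes are not reported here. Marker lists give up to 3 as well. Sequences were read for clusters in promoter windows, chromosome 18 left out, and printed for enriched ones. The choice of stretches came after the data were seen, as did the run length in the sequences. Alternatives changed the threshold, its adjustment, the gap that counts as shared, the distance to the gene end and whether only enriched clusters count.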

Additional observations from a re-analysis of the deposited data

How the results depend on the processing

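No result reversed under the alternatives run. No paired analysis was possible because the tables hold no values per library; for the same reason leaving out a replicate, a replicate block and a count test were not run. The number of clusters found only with exon 5 fell from 9754 to 4627 (1393 enriched) when clusters within 500 nt also counted as shared, and rose to 14751 when only enriched clusters of the other tables counted. The median log2 fold in the authors' deposited table was -0.33 with a 100-nt gap counted as shared and -0.37 with 500 nt. The enriched share was 27.4% at an adjusted p under 0.01, 30.8% with Benjamini-Hochberg values from the deposited p-value (43.1% in the whole table), 26.2% with a log2 fold of at least 1 as well, 30.3% with 500 nt counted as shared and 23.5% against enriched clusters only. The share near the 3′ end was 3.76% within 500 nt and 24.2% within 5000 nt; at 2000 nt it was 8.65% and 6.37% with gaps of 100 and 500 nt counted as shared, 16.2% against enriched clusters only and 7.84% for enriched clusters of the set. Genes with another table's cluster made up 82.2% when it had to be enriched and 90.8% for enriched clusters of the set, for which 67.8% of genes had 1 cluster and 94.2% of clusters were 50 nt wide. The ratios in the stretches of chromosomes 10 and 1, an alternative chosen after seeing the data, were 2.96 and 0.20 for enriched clusters. Other alternatives moved these values by less than their counting interval or, for counts, 1.5 times.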
